A study of Mus musculus with 10 samples.

Results

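Cytosolic ribosomal proteins are the proteins that, with ribosomal RNA, make up the ribosome of the cytoplasm. Their genes were taken here by symbol: rows whose name begins with Rpl or Rps followed by a number, plus Rpsa, Rplp0, Rplp1 and Rplp2. The Rps6 kinases, Rps19bp1 and pseudogenes marked by -ps in the symbol were left out. Rpl37rt and Rps4l were kept, although they have no coding length in the annotation used, and each gene's subunit was read from its symbol. This gave 81 genes of the 11617 listed, 32 of the small and 49 of the large subunit, and 12 rows with a similar name were left out. The cells were macrophages differentiated from the bone marrow of C57BL/6 mice. The growth factor was GM-CSF, at 50 ng/ml, in a medium containing 10% serum. The labels give the age of the mice as 7 weeks in the growth protocol and 6 weeks in another field. Cells received AmTARS, which reads as the threonyl-tRNA synthetase of Akkermansia muciniphila, for 1 h or 3 h at 0.5 mm as the labels write it. Others received Pam3csk4, a synthetic lipopeptide that activates Toll-like receptor 2, for 1 h or 3 h at 10 ng/ml. Controls were untreated, with no time given. Each of the 5 groups had 2 libraries of poly-A RNA, and the study compared both agents as ligands of Toll-like receptor 2. The labels do not state whether replicate libraries were made from different cultures or mice, so p-values here measure only the spread between these libraries, which may be technical.

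The small subunit reads the messenger RNA and the large subunit joins the amino acids. The P stalk of the large subunit, built from Rplp0, Rplp1 and Rplp2, recruits the elongation factors. Most ribosomal protein messenger RNAs begin with a C followed by a run of pyrimidines, the 5′ terminal oligopyrimidine (TOP) motif, through which the mTORC1 kinase and Larp1 control their translation. The genes are used in almost every cell type and their products are made in nearly equal numbers. A change in messenger RNA is not a change in ribosomes, which turn over slowly, and neither protein nor translation was measured.

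The sequences that describe the family best are a coding region and the starts of a few genes. Rpl41 encodes the smallest member, a protein of 25 residues, and it had the largest rise in 3 of the 4 comparisons with control. Its gene lies at chr10:128548114-128549305 on the minus strand (GRCm38, GENCODE M21), with 4 exons in the model used. Its coding region, shown because its 75 bases before the stop codon make it the shortest of the family, has the start and stop codons in capitals:
Rpl41 coding region: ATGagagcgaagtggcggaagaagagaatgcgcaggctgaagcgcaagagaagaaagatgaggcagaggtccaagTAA
The 60 bases around the annotated start of 8 members (30 before the start base and 30 from it on, RefSeq, GRCm38.p6) show where a TOP-like run stands at the start and where it does not. Capitals mark a C followed by at least 4 pyrimidines that begins within 5 bases of the annotated start:
Rpl41 (chr10:128549139-128549198, minus): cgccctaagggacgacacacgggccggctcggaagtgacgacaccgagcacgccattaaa
Rpl37a (chr1:72711230-72711289, plus): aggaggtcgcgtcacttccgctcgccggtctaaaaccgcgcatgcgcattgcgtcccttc
Rps6 (chr4:86857338-86857397, minus): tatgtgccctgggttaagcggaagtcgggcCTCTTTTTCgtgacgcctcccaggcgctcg
Rplp2 (chr7:141447621-141447680, plus): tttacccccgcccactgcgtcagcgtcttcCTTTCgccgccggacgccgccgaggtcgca
Rpl38 (chr11:114668550-114668609, plus): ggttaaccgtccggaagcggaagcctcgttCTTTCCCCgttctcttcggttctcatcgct
Rpl4 (chr9:64173357-64173416, plus): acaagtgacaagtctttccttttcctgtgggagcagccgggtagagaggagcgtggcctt
Rpl10 (chrX:74270786-74270845, plus): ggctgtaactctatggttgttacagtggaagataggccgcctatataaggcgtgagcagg
Rpl22l1 (chr3:28805478-28805537, plus): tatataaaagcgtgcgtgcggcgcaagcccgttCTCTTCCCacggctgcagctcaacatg
Rpl41 and Rpl37a stand for the larger rises described below, Rpl4 and Rpl10 for the smaller ones, and Rpl22l1 is a paralog described separately.

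The promoter table held 72 windows of 300 bases for 61 of the 81 members. A C with at least 4 pyrimidines stood exactly at the annotated start in 12 of the 72 windows (16.7%), against 2.51% of all windows in the table. Within 5 bases of the start it was found in 41.7% of the members' windows, against 18.3% of all windows. The letters CCGGAA, on either strand and anywhere in the window, were found in 47.2% and CTCTTTCC in 16.7% of the members' windows, against 14.9% and 3.12% of all windows. The letters GGGCGG were found in 62.5% and TATAAA in 9.72%, against 35.7% and 13.6%. Against the windows of the other listed genes alone, a closer background of genes used in these cells, the run at the start (2.25%), the run within 5 bases (19.7%), CCGGAA (27.6%) and CTCTTTCC (2.99%) were still less frequent than among the members. GGGCGG was as frequent there (62.8%), and TATAAA was less frequent there than among the members (6.90%), the opposite of the comparison with all windows. These motifs overlap in part, since CTCTTTCC at a start is also a C with a run of pyrimidines, and a match describes the letters only. The mean log2 change over the 4 comparisons with control had a median of 0.35 over the 12 members with the run exactly at the start and 0.35 over the 49 members with a window but no such run. An annotated start can differ from the start used in these cells, and Rpl4 has a pyrimidine run just before its annotated start. The split therefore cannot tell whether a TOP motif goes with the change.

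Every library held between 27398791 and 37559810 reads in the listed genes, with the fewest in Pam3csk4 1 h replicate 1. Values are log2(CPM + 1), CPM being a gene's reads divided by a scaled library size. The sums of CPM were 998260 to 1037796 in treated libraries and 959639 and 960837 in control libraries. Against a plain share of reads, a scaling between libraries thus lowers control values and raises those of most treated libraries. Treated values are thereby raised relative to control. All 9 macrophage markers were listed. They summed to 50606 to 54035 CPM in treated libraries and to 49359 and 51073 CPM in control libraries, nearly all of it Lyz2. These markers moved in both directions, with Mertk lower by 0.47 to 1.01 and Cd14 higher by 0.45 to 1.58 on the log2 scale over the 4 comparisons with control. The 3 fibroblast markers summed to 1129 to 1348 CPM in treated libraries and to 1400.3 and 1325 CPM in control libraries. No marker of T cells or B cells was listed (0 of 3 each). Of the dendritic cell markers 2 of 6 were listed, Itgax and Ccr7, summing to 59.4 to 68.3 CPM in treated libraries and to 69.1 and 67.8 CPM in control libraries. Ccr7 rose by 0.35 at 3 h of Pam3csk4, and Itgax fell by 0.19 at 3 h of AmTARS. The mast cell markers Cpa3 and Kit (2 of 3) summed to 6.81 to 8.93 CPM in treated libraries and to 7.48 and 6.34 CPM in control libraries. The 4 listed neutrophil markers of 5, led by S100a9 and S100a8, summed to 1332 to 1769 CPM in treated libraries and to 975 and 1064 CPM in control libraries. Mpo, another of them, was lower at 1 h of Pam3csk4 by 0.33 on the log2 scale (adjusted p = 0.00517). The part of these other cell types' markers in the results below was not tested. In bulk RNA, a change in the kinds of cells and a change in RNA per cell cannot be told apart. Over the 11366 genes with a matched transcript, short transcripts had higher values than long ones in every treated group relative to control, with a Spearman correlation across genes of -0.73 and -0.66 (AmTARS 1 h and 3 h) and -0.73 and -0.51 (Pam3csk4 1 h and 3 h). Genes are not independent replicates, so these carry no p. Ribosomal protein transcripts are short, with a median of 830 nt against 2916 nt over all genes. The results are therefore given as deposited and also with each library's trend on length and GC content removed, once by transcript length and once by coding length.

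All 81 members passed the filter of a mean of at least 1 CPM, and 73 averaged over 100 CPM. The median member averaged 402 CPM, against 23.0 CPM for the median listed gene, and 59 members were among the 500 genes with the highest mean. Per kilobase of transcript, the highest levels were those of Rplp1 (1814 CPM per kb) and Rps29 (1701 CPM per kb), a small-subunit protein with a zinc finger. Rps9, Rpl41 and Rps12 followed at 1224, 1163 and 1152 CPM per kb, and by coding length Rpl41 came first of the family. The lowest levels per kb were those of Rpl7l1 (38.3 CPM per kb), Rps4l, Rpl37rt (6.39 CPM per kb), Rpl39l (3.42 CPM per kb) and Rpl34 (1.84 CPM per kb). Apart from Rpl34, these are paralogs or retrocopies of other members. Rpl34 is a standard large-subunit protein, yet it was listed at 0.714 to 1.52 CPM over the 10 libraries. How reads shared with near-identical copies were counted is not given in the sources used here, so the level of any member with such copies, Rpl34 and Rps27l among them, is uncertain. Rps27, the usual partner of Rps27l, was not analysed here.

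Summed over the 81 genes, ribosomal protein messenger RNA was higher in every treated library than in either control library. The sum was 37168 and 35905 CPM with AmTARS at 1 h and 36430 and 33537 CPM at 3 h. It was 39941 and 36974 CPM with Pam3csk4 at 1 h, 33670 and 35451 CPM at 3 h, and 27671 and 28981 CPM in control. The group means were thus 1.29 and 1.24 times control with AmTARS at 1 h and 3 h, and 1.36 and 1.22 times control with Pam3csk4. As a plain share of the reads in listed genes, which uses no scaling between libraries, the family took 3.68% and 3.58% with AmTARS at 1 h and 3.60% and 3.35% at 3 h. It took 3.94% and 3.70% with Pam3csk4 at 1 h, 3.35% and 3.42% at 3 h, and 2.88% and 3.02% in control. By share of reads the group means were 1.23 and 1.18 times control with AmTARS and 1.30 and 1.15 times control with Pam3csk4, below the ratios of the deposited values. On either scale the 8 treated libraries lay above both control libraries.

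**Figure D1:**
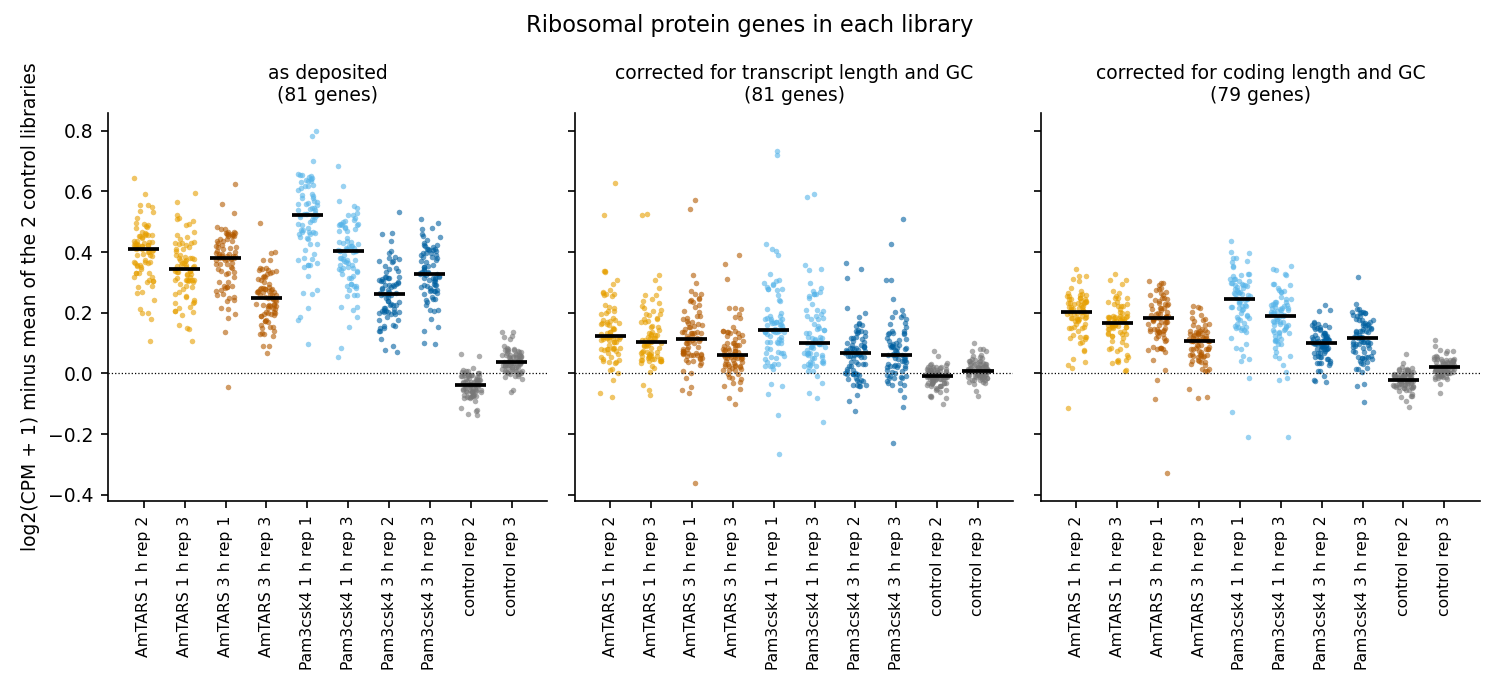
Each point is 1 ribosomal protein gene in 1 library, as log2(CPM + 1) minus the mean of the 2 control libraries; black bars are medians over the genes, and the panels show values as deposited and after each correction. As deposited, the medians of the treated libraries lie between 0.25 and 0.52, and those of the control libraries at -0.04 and 0.04; corrected for transcript length and GC content, the treated medians lie between 0.06 and 0.14.

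With AmTARS for 1 h, 79 of the 81 genes rose, with adjusted p below 0.05 over all 11407 genes tested (limma with a trend, Benjamini-Hochberg adjustment), against 18.9% of all genes called higher, and none fell. The exceptions were the paralogs Rpl39l and Rpl7l1. The median change was 0.38 on the log2 scale, 1.30-fold. For all 81 members both AmTARS 1 h libraries lay above both control libraries, as they did for 34.8% of all genes. At 3 h of AmTARS 78 of 81 rose, against 18.8% of all genes, with a median of 0.32 (1.25-fold) and with Rpl34 as the third exception. There 79 of 81 members had no overlap between the libraries, against 35.9% of all genes. With Pam3csk4 78 of 81 rose at 1 h, against 23.9% of all genes, with a median of 0.46 (1.37-fold), and the same 3 genes, Rpl34, Rpl39l and Rpl7l1, missed the threshold. At 1 h of Pam3csk4 80 of 81 members did not overlap with control, against 37.6% of all genes. At 3 h of Pam3csk4 76 of 81 rose, against 24.7% of all genes, with a median of 0.30 (1.23-fold). The exceptions there were Rpl3, Rpl4, Rpl10, Rpl22l1 and Rpl34, although all 81 members were without overlap, against 37.1% of all genes. These 4 comparisons share the control libraries and are not independent of one another. In all of them 74 members rose, as at most 18.8% of all genes can have done, the smallest share of a single comparison. The standard error of a member's change was between 0.04 and 0.13, with a median of 0.05.

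The P stalk genes are the first group by role. Rplp1, the acidic stalk protein, stood at 1004 and 971 CPM with AmTARS at 1 h and at 944 and 858 CPM at 3 h. It stood at 1078 and 998 CPM with Pam3csk4 at 1 h, 891 and 941 CPM at 3 h, and 670.0 and 696 CPM in control. Every treated library was thus well above control, with rises of 0.53 ± 0.05 and 0.40 ± 0.05 (AmTARS 1 h and 3 h) and 0.60 ± 0.05 and 0.42 ± 0.05 (Pam3csk4 1 h and 3 h) on the log2 scale (SE, n = 2 libraries per group). Its stalk partner Rplp2 rose by nearly as much, by 0.49, 0.38, 0.57 and 0.40 in the same order. Rplp0, which anchors the stalk and is used as a reference gene in qPCR, rose less. It stood at 1349 and 1345 CPM with AmTARS at 1 h and 1313 and 1265 CPM at 3 h. It stood at 1408 and 1352 CPM with Pam3csk4 at 1 h, 1270.2 and 1332 CPM at 3 h, and 1111 and 1095 CPM in control. The libraries did not overlap with control in any treated group, and the rises were 0.29, 0.22, 0.32 and 0.24, each with an SE of 0.05 and an adjusted p between 1.35e-05 and 0.000937.

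All 32 small-subunit genes rose in each of the 4 comparisons, with medians of 0.39 and 0.34 (AmTARS 1 h and 3 h) and 0.48 and 0.33 (Pam3csk4 1 h and 3 h). Rps21, which in yeast takes part in the maturation of the small subunit, had 274 and 268 CPM with AmTARS at 1 h and 274 and 237 CPM at 3 h. It had 321 and 286 CPM with Pam3csk4 at 1 h, 242 and 259 CPM at 3 h, and 181 and 191 CPM in control. Its rises, 0.54 ± 0.06, 0.45 ± 0.06, 0.70 ± 0.06 and 0.43 ± 0.06 (SE), were among the 6 largest of the family in every comparison with control. Rpsa, also known as the laminin receptor, had 1027 and 1011 CPM with AmTARS at 1 h and 1007 and 935 CPM at 3 h. It had 1116 and 1038 CPM with Pam3csk4 at 1 h, 938 and 1017 CPM at 3 h, and 773 and 778 CPM in control. None of the treated libraries reached down to control, and it rose by 0.39, 0.32, 0.47 and 0.33. Rps3, which lines the entry of the messenger RNA channel and also has a role in DNA repair and NF-kappaB signalling, rose by 0.38, 0.30, 0.45 and 0.28. Rps19, the gene most often mutated in Diamond-Blackfan anaemia, rose by 0.47, 0.38, 0.57 and 0.38. Rps6, the substrate of the S6 kinases downstream of mTORC1, was at the low end with rises of 0.28, 0.24, 0.33 and 0.24. It stood at 308 and 298 CPM with AmTARS at 1 h, 305 and 286 CPM at 3 h, and 249 and 251 CPM in control. With Pam3csk4 it stood at 322 and 305 CPM at 1 h and 286 and 303 CPM at 3 h, so that all treated libraries lay above control here too.

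Of the 49 large-subunit genes, 47 and 46 rose with AmTARS at 1 h and 3 h, and 46 and 44 with Pam3csk4. Their medians were 0.37, 0.31, 0.43 and 0.28. Rpl41 had 567 and 537 CPM with AmTARS at 1 h and 559 and 478 CPM at 3 h. It had 631 and 583 CPM with Pam3csk4 at 1 h, 490.1 and 511 CPM at 3 h, and 354 and 371 CPM in control. Its lowest treated library was well above its highest control library, and its rises of 0.61 ± 0.06, 0.51 ± 0.06, 0.74 ± 0.06 and 0.46 ± 0.06 (SE) led the family except at 3 h of Pam3csk4, where Rps4l, listed at 7.45 to 11.5 CPM, had 0.48 ± 0.08. Rpl37a, a zinc finger protein of the large subunit, rose by 0.51, 0.45, 0.63 and 0.44, and Rpl36 by 0.55, 0.42, 0.59 and 0.45. Rpl5 and Rpl11, which with 5S RNA bind Mdm2 when ribosome assembly fails, rose by 0.28 and 0.40 at 1 h of AmTARS and by 0.31 and 0.45 at 1 h of Pam3csk4. Rpl23, which also binds Mdm2, rose by 0.25 and 0.27 in these comparisons. Rpl13a, which in human monocytes can leave the ribosome and silence inflammatory messenger RNAs, rose by 0.45, 0.37, 0.57 and 0.31. It stood at 587 and 553 CPM with AmTARS at 1 h and 579 and 497 CPM at 3 h. It stood at 649 and 585 CPM with Pam3csk4 at 1 h, 513 and 522 CPM at 3 h, and 401 and 432 CPM in control, with no overlap in any treated group.

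Several abundant members of the large subunit changed little. Rpl4, with a coding region of 1257 nt the longest of the family, changed by 0.16, 0.17, 0.17 and 0.10. Rpl3, which lies near the catalytic centre, changed by 0.20, 0.15, 0.23 and 0.09. Rpl10, which joins the large subunit last, changed by 0.17, 0.17, 0.20 and 0.11. For these 3 genes the fourth value, at 3 h of Pam3csk4, missed the threshold, and with quantile normalization Rpl3 and Rpl4 were called lower there. Rpl10 had 815 and 786 CPM with AmTARS at 1 h and 822 and 777 CPM at 3 h. It had 823 and 806 CPM with Pam3csk4 at 1 h, 747 and 789 CPM at 3 h, and 691 and 728 CPM in control. The lower treated libraries stood only slightly above the higher control library.

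**Figure D2:**
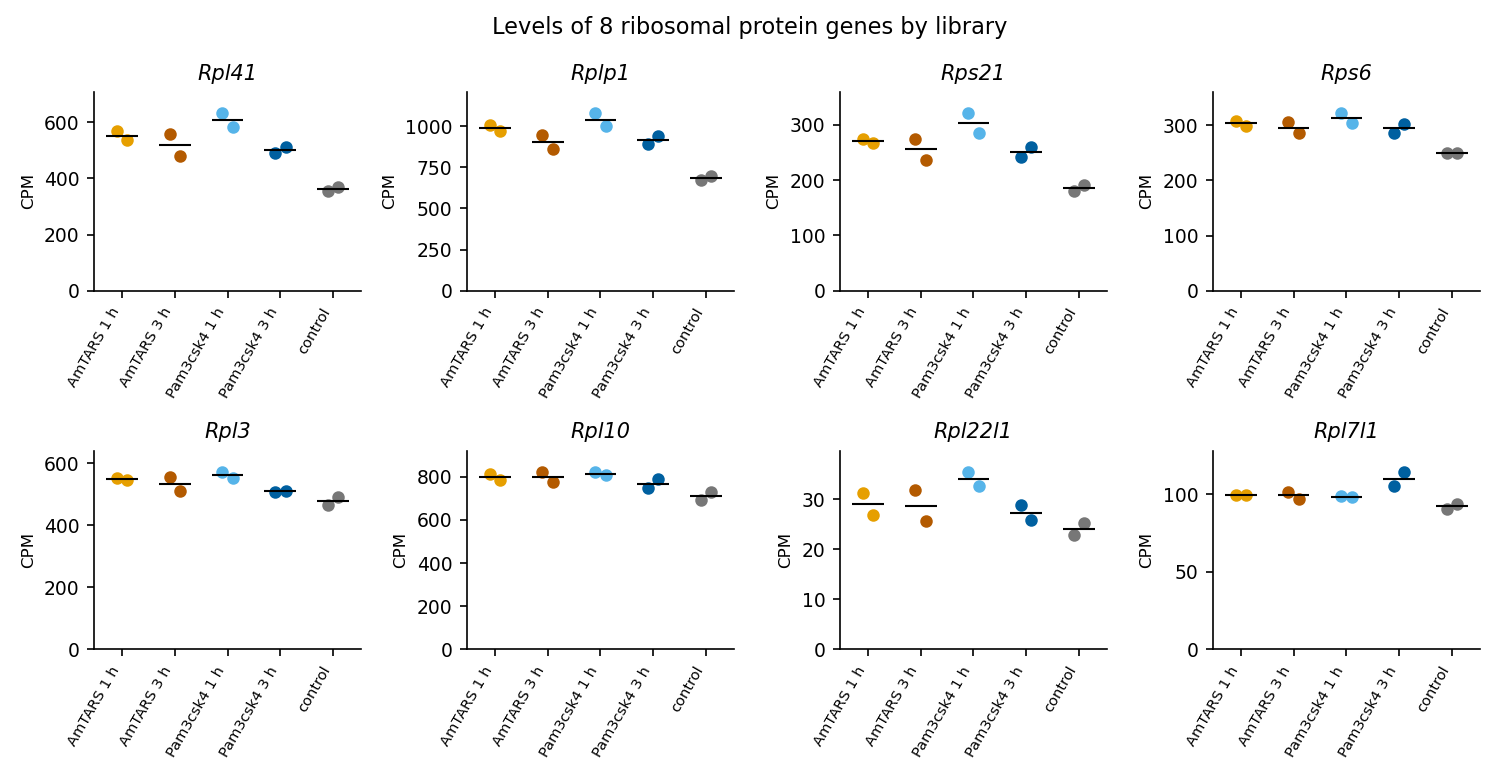
Levels of 8 genes in CPM on linear axes from 0, 1 point per library and a black line at each group mean (2 libraries per group). Rpl41, Rplp1 and Rps21 stand clearly above control in all treated groups, Rps6, Rpl3 and Rpl10 by less, while the paralog Rpl22l1 is highest at 1 h and Rpl7l1 at 3 h of Pam3csk4.

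Within the family, members with a long coding region changed less as deposited. Across the 79 members with a coding length, the Spearman correlation of coding length with the change was -0.46 and -0.48 (AmTARS 1 h and 3 h) and -0.49 and -0.52 (Pam3csk4 1 h and 3 h), a description across genes that share their libraries. The 27 members under 400 nt had medians of 0.39, 0.34, 0.49 and 0.32. The 37 members of 400 to 700 nt had nearly the same, 0.38, 0.33, 0.46 and 0.31, and the 15 members over 700 nt had 0.28, 0.22, 0.32 and 0.23. Transcript length had similar correlations with the change (-0.46, -0.46, -0.50 and -0.50). After the correction for coding length described below, the correlation with coding length was positive, at 0.28, 0.26, 0.25 and 0.32. The mean level of a member showed little relation with its change (Spearman 0.01, -0.09, -0.05 and -0.14), while GC content had correlations of 0.46, 0.40, 0.42 and 0.47 with it.

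**Figure D3:**
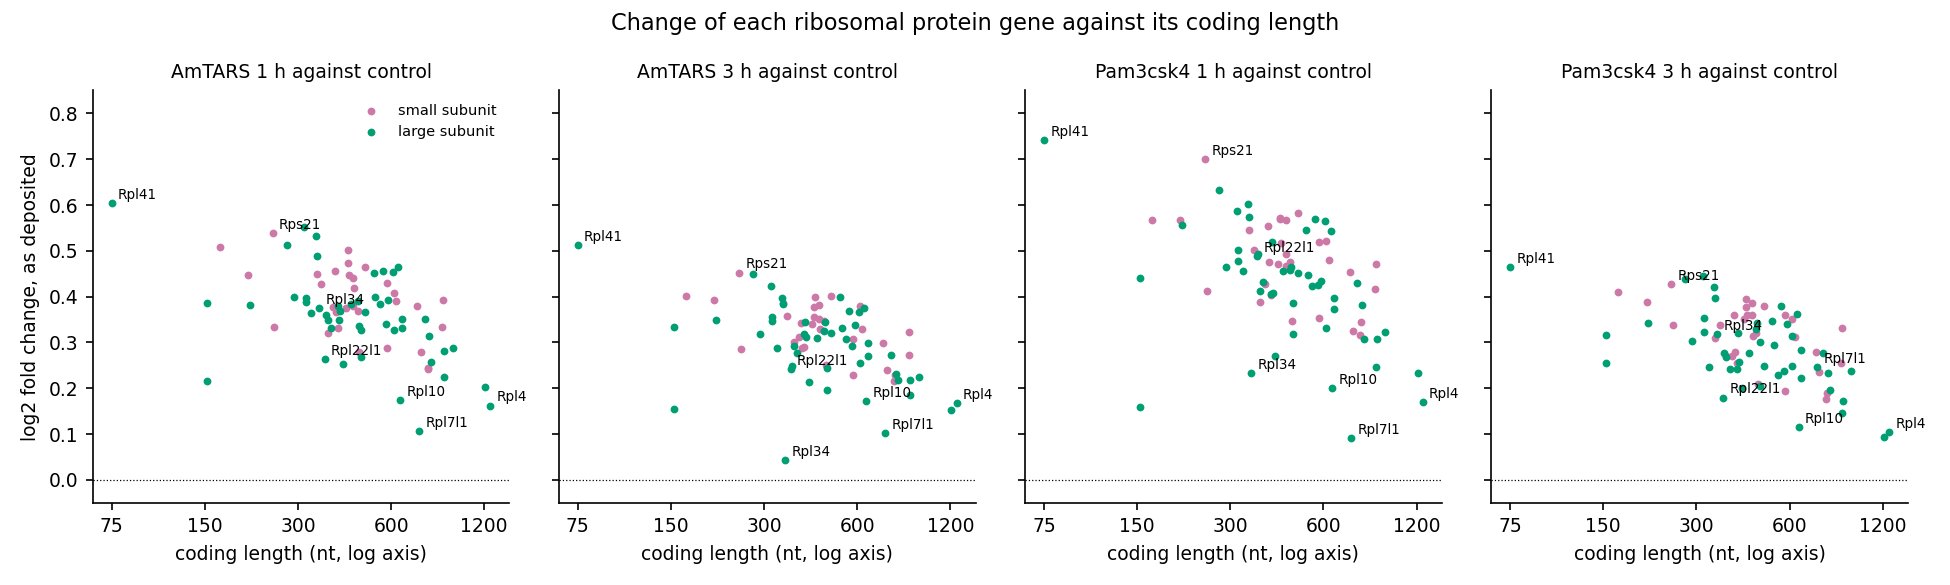
Log2 fold change as deposited (vertical) against coding length on a log axis (horizontal) for the 79 members with a coding length, in each comparison with control, with small-subunit genes in pink and large-subunit genes in green. Rpl41 at 75 nt is at the top left and Rpl4 at 1257 nt at the lower right, and all points lie above 0.

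Removing each library's trend on transcript length and GC content made the family's changes smaller and left fewer of them past the threshold. With AmTARS 43 of 81 members were higher at 1 h (median 0.12), against 7.91% of all genes, and 31 at 3 h (median 0.09), against 10.7%. With Pam3csk4 49 were higher at 1 h (median 0.12), against 11.2% of all genes, and 26 at 3 h (median 0.07), against 20.8%. Only Rpl10 was then lower, by 0.11 and 0.12 with Pam3csk4 at 1 h and 3 h (adjusted p = 0.016 and 0.00519), although as deposited it was higher at 1 h and not called at 3 h. Several counts rested on single libraries. Without control replicate 2 they were 21, 14, 28 and 13 in the order above. Leaving out AmTARS 1 h replicate 2 gave 23 for the first, leaving out AmTARS 3 h replicate 1 gave 11 for the second, and leaving out Pam3csk4 1 h replicate 1 gave 27 for the third. The annotated transcripts of a few members are far longer than their coding regions, as for Rps15a (5179 nt) and Rps20 (3706 nt), and these 2 had the largest corrected rises, 0.43 to 0.66 for Rps15a and 0.39 to 0.65 for Rps20.

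With coding length in place of transcript length, a correction added after these values had been seen, more members were called higher. With AmTARS 65 of 79 were called at 1 h (median 0.19), against 8.38% of all genes, and 57 at 3 h (median 0.14), against 11.4%. With Pam3csk4 68 were called at 1 h (median 0.21), against 14.6% of all genes, and 44 at 3 h (median 0.11), against 21.2%. Under both corrections 11 members were higher in all 4 comparisons, among them Rpl37a, Rplp2, Rps3, Rps21 and Rpsa. At most 7.91% of all genes can have been, the smallest share of a single comparison. Rpsa had 0.33 ± 0.04, 0.26 ± 0.04, 0.39 ± 0.04 and 0.26 ± 0.04 (SE) by transcript length and 0.34, 0.26, 0.40 and 0.27 by coding length, so that its change hardly moved. Rpl41, by contrast, kept 0.24, 0.19, 0.27 and 0.14 by transcript length, all called, and 0.09, 0.08, 0.08 and 0.03 by coding length, none called. Rps6 went the other way, with 0.05, 0.04, 0.04 and 0.02 by transcript length, none called, and 0.20, 0.16, 0.22 and 0.15 by coding length, all called. For Rpl41 and Rps6 the call thus depended on which length was used.

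The paralogs were set beside the standard members they resemble. Rpl22l1 stood at 31.3 and 26.9 CPM with AmTARS at 1 h and at 31.8 and 25.6 CPM at 3 h. It stood at 35.5 and 32.7 CPM with Pam3csk4 at 1 h, 28.9 and 25.8 CPM at 3 h, and 22.8 and 25.2 CPM in control. The 1 h Pam3csk4 libraries were its highest, and its rise there was 0.49 ± 0.09 (adjusted p = 0.000203), against 0.26 ± 0.09 and 0.24 ± 0.09 with AmTARS and 0.18 ± 0.09, not called, at 3 h of Pam3csk4. Its partner Rpl22, an RNA-binding protein needed in lymphocyte development in mice, rose by 0.33, 0.28, 0.43 and 0.24. Rpl7l1, which in yeast and human cells belongs to ribosome assembly more than to the ribosome, had 105 and 114 CPM at 3 h of Pam3csk4, against 90.6 and 93.7 CPM in control, a rise of 0.25 ± 0.05 (adjusted p = 0.000518). In the other treated groups its libraries lay between 96.7 and 101 CPM and its changes, 0.11, 0.10 and 0.09, missed the threshold. Its partner Rpl7 rose by 0.26, 0.22, 0.31 and 0.20. Rpl36al rose by 0.39, 0.35, 0.48 and 0.35, and its partner Rpl36a by 0.40, 0.35, 0.50 and 0.32. Rps27l, a target of p53, rose by 0.33, 0.29, 0.41 and 0.34. Rpl39l, known from mouse testis, was listed at 2.03 to 3.14 CPM and was called at 3 h of Pam3csk4, by 0.32 ± 0.12 (adjusted p = 0.0326). Its partner Rpl39 rose by 0.39, 0.33, 0.44 and 0.26. With transcript length and GC content corrected, Rpl22l1, Rpl36al, Rpl39, Rpl39l and Rps27l were called in none of the comparisons with control. Rpl22l1 at 1 h of Pam3csk4 was then 0.18 and not called, but 0.36 and called by coding length. By coding length Rpl36al was also called higher at 1 h of both agents and Rps27l at 1 h of Pam3csk4. Rpl39 and Rpl39l were called in none of these comparisons by coding length either. Rpl7l1 at 3 h of Pam3csk4 was called under both corrections, by 0.25 and 0.16.

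Set directly against each other at the same time, the agents gave no ribosomal protein difference that passed the test as deposited. At 1 h no member was called between AmTARS and Pam3csk4, against 0.184% of all genes in either direction. The member differences were between -0.22 and 0.14 with a median of -0.07, and the 95% interval of a single member reached a median of 0.11 to either side. Without adjustment 12 members had p below 0.05, all lower with AmTARS. With transcript length and GC content corrected there were 3, again all lower. For unadjusted p, here and below, the share of all genes is not given, so these counts are not read as results about the members. At 3 h no member was called, against 17.1% of all genes, with a median difference of 0.02 and 1 member (Rpl7l1) with an unadjusted p below 0.05, lower with AmTARS. A voom fit on the recovered reads also called 0 members at either time. With transcript length and GC content corrected, 4 members were higher with AmTARS at 3 h, Rpl4, Rpl17, Rpl32 and Rps26, by 0.09 to 0.12, and Rpl7l1 was lower by 0.14, against 21.9% of all genes called. These counts rested on single libraries. Without AmTARS 3 h replicate 1 there were 0 higher, and without any 1 library of the 1 h groups or of control there were 2. Rpl7l1 was not called without AmTARS 3 h replicate 3 or without Pam3csk4 3 h replicate 3.

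Between 1 h and 3 h the family changed with Pam3csk4. Of the 81 members 50 were lower at 3 h than at 1 h, against 15.3% of all genes called lower, with a median of -0.16 over the family. The other call was Rpl7l1, which was higher at 3 h by 0.15 ± 0.05 (adjusted p = 0.0255), against 16.2% of all genes called higher. The largest falls were those of Rpl22l1 (by 0.31 on the log2 scale), Rpl41 (0.28), Rps21 (0.27), Rpl13a (0.25), Rps26 (0.24) and Rpl35 (0.22). The count of 50 depended on the fit, and with the replicate number as a block 3 members were lower, Rpl41, Rps21 and Rps26. It also leaned on 1 library. Pam3csk4 1 h replicate 1 had the highest sum of all, and without it 1 member, Rpl41, was lower, while without Pam3csk4 3 h replicate 2 there were 13. With transcript length and GC content corrected, 30 members were lower, against 16.9% of all genes, and 8 without that 1 h library. By coding length 41 were lower, against 17.2% of all genes. Under both corrections and as deposited 22 members were called lower, among them Rpl13a, Rpl22l1, Rps3, Rps21, Rps26 and Rpsa. At most 15.3% of all genes can have been called lower in all of these fits.

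With AmTARS the same step gave no call, against 2.38% of all genes in either direction. The median was -0.06, the member differences were between -0.33 and 0.04, and 5 members had an unadjusted p below 0.05, all lower at 3 h. A voom fit called 0. The largest differences were those of Rpl34, at 0.809 and 1.04 CPM at 3 h and 1.33 and 1.52 CPM at 1 h, and of Rps15 (-0.15). Whether the step differed between the agents was tested as an interaction. No member was called in it as deposited, against 9.20% of all genes, with 6 members above and 2 below 0 at an unadjusted p below 0.05 and 0 called by voom. The median difference between the steps was 0.09. A difference between the agents in this step is therefore not shown as deposited. With length and GC content corrected, 1 member was called, against 12.0% of all genes by transcript length. This was Rpl22l1, with a difference of 0.33 ± 0.10 (adjusted p = 0.0364) by transcript length and 0.36 ± 0.10 (adjusted p = 0.0244) by coding length. Without either AmTARS 1 h library, AmTARS 3 h replicate 1, Pam3csk4 1 h replicate 1 or either control library, no member was called by transcript length.

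**Figure D4:**
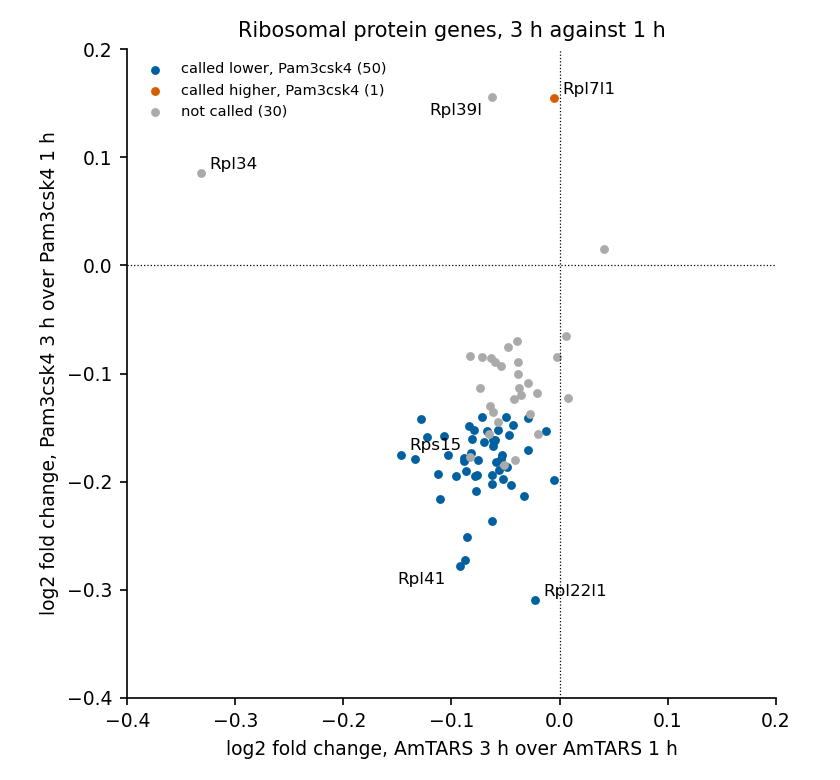
Log2 fold change between 3 h and 1 h for each of the 81 members, with AmTARS on the horizontal and Pam3csk4 on the vertical axis; blue and orange points were called with Pam3csk4. Most points lie below 0 on both axes and lower for Pam3csk4, with Rpl7l1, Rpl39l and Rpl34 apart from the rest.

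Other gene lists of translation and of short transcripts were read beside the family. The 72 nuclear-encoded subunits of oxidative phosphorylation tested have a median transcript of 786 nt and also rose in most cases as deposited. With AmTARS 64 and 63 of them rose at 1 h and 3 h, with medians of 0.34 and 0.30, and with Pam3csk4 64 and 63, with medians of 0.43 and 0.29. Corrected for transcript length and GC content, 16, 9, 24 and 14 of these 72 were higher (22.2%, 12.5%, 33.3% and 19.4%), against 7.91%, 10.7%, 11.2% and 20.8% of all genes and 53.1%, 38.3%, 60.5% and 32.1% of the ribosomal protein genes. At 3 h the subunits of oxidative phosphorylation were thus near the share of all genes under this correction only. By coding length 31, 22, 44 and 29 of the 72 were higher, against 8.38%, 11.4%, 14.6% and 21.2% of all genes. Of the 77 mitochondrial ribosomal proteins, 46, 42, 57 and 44 rose as deposited, with medians of 0.20, 0.20, 0.28 and 0.18. The share of all genes as deposited was 18.9%, 18.8%, 23.9% and 24.7%. By transcript length 17, 13, 21 and 24 of the 77 were higher, against 7.91%, 10.7%, 11.2% and 20.8% of all genes. Neither difference between lists was tested.

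Of 18 TOP messenger RNAs that the symbol rule does not take, 11, 10, 12 and 9 rose in the same order of comparisons and 0, 1, 1 and 2 fell. With transcript length and GC content corrected, 6, 5, 7 and 4 were higher and 0, 0, 2 and 4 lower, with medians of 0.03, 0.02, 0.02 and -0.03. Among them Fau, which encodes a ribosomal protein fused to a ubiquitin-like protein, rose by 0.54, 0.45, 0.67 and 0.49, and by 0.15, 0.12, 0.18 and 0.15 with the correction. Eef1b2, a subunit of the elongation factor exchange complex, rose by 0.33 and 0.25 with AmTARS, and Eif4b, an initiation factor, fell by 0.31 at 3 h of Pam3csk4. Over all genes, 18.9%, 18.8%, 23.9% and 24.7% were called higher and 19.8%, 17.9%, 24.8% and 24.2% lower as deposited. Of 37 ribosome biogenesis factors 9, 7, 11 and 10 were called higher (24.3%, 18.9%, 29.7% and 27.0%), near the share of all genes, and 5, 3, 6 and 6 lower. Rrs1, an assembly factor of the large subunit, rose by 0.66 ± 0.07 at 3 h of Pam3csk4 and was lower with AmTARS than with Pam3csk4 at 3 h by 0.46. Nop10 and Nhp2, of the small nucleolar particles that modify ribosomal RNA, rose by 0.41 and 0.37 at 1 h of AmTARS and by 0.53 and 0.51 at 1 h of Pam3csk4. With the correction Nop10 kept 0.23 and 0.31 in these comparisons, both called. Nhp2 kept 0.13, not called, and 0.20, called. Heatr1, of the same list, fell by 0.35 at 3 h of AmTARS and by 0.43 at 3 h of Pam3csk4, and by 0.13, not called, and 0.21, called, with the correction. Of 52 genes whose symbol begins with Eif and a number, 17, 16, 19 and 23 were higher (32.7%, 30.8%, 36.5% and 44.2%) and 10, 7, 13 and 9 lower. Besides initiation factors these genes include regulators of translation, such as Eif2ak2, Eif2ak3, Eif2ak4 and Eif4ebp2. Of 16 regulators of mTORC1 and TOP messenger RNAs 4, 5, 5 and 8 were higher and 8, 5, 9 and 5 lower. Among these Eif4ebp2, a translational repressor, fell in all 4 comparisons, by 0.33, 0.28, 0.45 and 0.48, and Tsc1, a brake on mTORC1, fell by 0.41 and 0.42 with AmTARS at 1 h and 3 h and by 0.45 with Pam3csk4 at 1 h. With the correction Tsc1 was called at 3 h of AmTARS (-0.20, adjusted p = 0.0207) and in neither 1 h comparison. Ddit4, another inhibitor of mTORC1, rose by 0.58 at 3 h of Pam3csk4, and Larp1 was higher at 3 h than at 1 h of Pam3csk4 by 0.37. Eif4ebp1, of the same list, moved the other way from Eif4ebp2, rising by 0.30 at 3 h of AmTARS and 0.39 at 3 h of Pam3csk4. With the correction these rises were 0.26 and 0.32, both called. Mtor itself fell by 0.33 at 1 h of AmTARS, and by 0.07, not called, with the correction. Over all genes tested the median change was between -0.01 and 0.01 in every comparison.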

How the data were processed

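The authors deposited 1 table of log2 values per gene and library, which are log2(CPM + 1); per the submitters' processing notes reads were aligned with STAR 2.5.1 to mm10 and processed in R 3.3.0. The counter, annotation and scaling are not given in the sources used here. All values (100%) gave whole reads within 0.1 read, with 27398791 to 37559810 reads per library. The 11407 genes averaging 1 CPM or more were tested with limma 3.58.1 in R 4.3.3 (trend, all 10 libraries in 1 fit without a block) and p-values adjusted over all genes in each comparison; a call is an adjusted p below 0.05. Fold changes on the log2(value + 1) scale understate low genes. Lengths and GC content came from GENCODE M21 (GRCm38); each library's deviations were fitted with natural splines of 5 degrees of freedom and the fit removed. The code was tested on simulated data. Members and lists were chosen with earlier results of these data known. Named genes were the 6 largest rises and falls called without overlap per comparison, fixed members and paralogs, the highest and lowest per kb, and up to 3 called genes per other list. Members named for small counts, small changes or long transcripts, and those called under both corrections, were chosen after their values were seen. Alternatives were other filters, pseudocounts, scalings, voom on recovered reads, a replicate block, both corrections and leaving out each library.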

Additional observations from a re-analysis of the deposited data

Results flagged for a closer look

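Rpl22l1 differed between the agents in its step between 1 h and 3 h once length and GC content were corrected, by 0.33 (AmTARS minus Pam3csk4, limma interaction, adjusted p = 0.0364) with transcript length and by 0.36 (adjusted p = 0.0244) with coding length. With transcript length corrected no member was called without either AmTARS 1 h library, AmTARS 3 h replicate 1, Pam3csk4 1 h replicate 1 or either control library. As deposited the difference was 0.29 ± 0.13 (SE, adjusted p = 0.196). Its levels were 25.6 to 31.8 CPM at 3 h and 26.9 to 31.3 CPM at 1 h of AmTARS, and 25.8 to 28.9 CPM at 3 h and 32.7 to 35.5 CPM at 1 h of Pam3csk4, so that the libraries overlap between the times with AmTARS and not with Pam3csk4.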

How the results depend on the processing

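In the comparisons with control, members called higher outnumbered those called lower under every setting tried, and voom on the recovered reads called 79, 78, 78 and 78 higher and 0 lower (4425, 4263, 5424 and 5651 of all genes in either direction, against 4415, 4186, 5556 and 5576 on the deposited values). As deposited and leaving out each library in turn, 71 to 79, 59 to 78, 77 to 78 and 59 to 77 members were higher (AmTARS 1 h and 3 h, Pam3csk4 1 h and 3 h), and 0 lower. Corrected for transcript length and GC content the counts were 43, 31, 49 and 26, with the replicate block added 42, 11, 27 and 29, and with the trend fitted without the members, an alternative chosen after seeing the data, 46, 34, 51 and 26. Coding length, also chosen after seeing the data, gave 44 at 3 h of Pam3csk4. Rpl10 was the 1 member lower with Pam3csk4 under the transcript length corrections (at 3 h also with the block), and Rpl3 and Rpl4 the 2 lower at 3 h with quantile normalization. For AmTARS against Pam3csk4 at 3 h, 4 members were higher with transcript length corrected (also without the members in the trend), 8 with quantile normalization and 1 (Rps26) with coding length; 1 (Rpl7l1) was lower under these corrections and with the block, and 0 to 1 without 1 library. For AmTARS 3 h against 1 h, 2 members were lower with the block, Rpl35 and Rps15 as deposited and Rps15a and Rps20 corrected. For Pam3csk4 3 h against 1 h, 30 were lower with the correction (30 without the members in the trend), 7 with the correction and block, 3 with the block, and 1 to 58 without 1 library; 0 were higher with quantile normalization and 0 to 1 without 1 library. In the interaction 1 (Rpl22l1) was higher under the 3 corrections without the block, 8 with quantile normalization and 0 to 3 without 1 library. For the counts of 8 with quantile normalization, the share of all genes called under that setting is not given. These counts are therefore not read as results about the members. Same-numbered libraries showed correlations of their deviations of -0.18, 0.12, -0.04 and 0.20 over the 4 pairs of groups in which both replicate numbers are the same. These are weak and mixed in sign, and with 2 libraries a group they cannot settle whether the numbers pair the samples. The replicate block gave 79, 63, 77 and 77 members higher against control. With 2 libraries a group, leaving one out leaves a lone sample assumed to vary like the other groups. The causes of these changes were not tested.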
